A study of Mus musculus with 6 samples.

Results

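The imprinted H19-Igf2 domain of mouse chromosome 7 was described at 130 CpGs, out of 864621 autosomal CpGs that met the same coverage rule. A CpG entered when it had at least 10 reads, both strands added, in at least 2 samples of each genotype. The domain was the interval from 142120000 to 142230000 (mm39), with H19 at about 142129260 to 142131920 and Igf2 at about 142204500 to 142224000. These were 130 of the 257 CpGs listed in any library in this interval, and 88 of them were read in all 6 samples. The samples were 3 Chd8+/- and 3 WT preparations of neocortex from mice at postnatal day 5. Chd8+/- denotes 1 affected copy of Chd8, which encodes a chromatin remodeller, and the labels name neither the allele, the strain, the sex nor whether animals were pooled. Methylation calls do not check the Chd8 genotype of a sample. The assay was reduced representation bisulfite sequencing (RRBS), in which the enzyme MspI cuts at CCGG and bisulfite converts unmethylated cytosines, so that the methylation level of a CpG is the percent of its reads that still show cytosine. Separate animals are not named for the samples, so a p-value here measures only how far these samples scatter, which may be technical.

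H19 is a long noncoding RNA gene expressed from the maternal chromosome, and Igf2, insulin-like growth factor 2, is a growth factor gene expressed from the paternal chromosome in most tissues. Between them, a few kilobases upstream of H19, lies a control region that is methylated in sperm. On the unmethylated maternal copy the protein CTCF binds this region and insulates Igf2 from enhancers beyond H19. On the paternal copy methylation keeps CTCF off, and it spreads to the H19 promoter after fertilisation. A tissue with 1 methylated and 1 unmethylated parental copy reads near 50% at such a region, and the tables hold no information on which parental copy a read came from. In the brain, Igf2 is known for expression from both copies in the choroid plexus and the membranes around the cortex.

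A promoter sequence of Igf2 is shown because 8 of its 24 CpGs were read and were almost free of methylation, and it shows how dense its CpGs are. RefSeq (GRCm38.p6) gives 4 Igf2 promoter windows of 300 bases, 250 before and 50 after a transcript start, with 2, 14, 24 and 7 CpGs. That build differs from mm39, so the windows were placed only by the spacing of their CpGs against the listed CpG positions. The window with 24 CpGs was the only one placed. A position counted only if every listed CpG in its frame fell on a CpG of the sequence, and positions with a mismatch were not scored. The best such position held 8 listed CpGs and the next best 2. By this match the window spans chr7:142212492-142212791 (mm39, minus strand). It reads 5′ to 3′, with every CpG in capitals:
Igf2 promoter: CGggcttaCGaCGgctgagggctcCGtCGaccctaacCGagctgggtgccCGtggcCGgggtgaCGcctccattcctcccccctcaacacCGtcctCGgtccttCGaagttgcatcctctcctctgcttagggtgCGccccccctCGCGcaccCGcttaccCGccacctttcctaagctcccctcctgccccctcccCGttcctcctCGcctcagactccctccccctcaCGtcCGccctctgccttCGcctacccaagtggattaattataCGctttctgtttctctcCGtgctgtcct
Of 32851 RefSeq promoter windows of this length, 19.98% hold at least as many CpGs (motif CG, the same on both strands). The 8 CpGs read here start at bases 1 to 57 of the sequence, and only 1 of them, at 142212790, met the coverage rule. The rest of the sequence was not read. The Chd8+/- libraries listed 8, 0 and 1 of these CpGs and the WT libraries 7, 8 and 1. In replicate 3 of both genotypes the one listed was that at 142212790. In the Chd8+/- libraries 1 of 100, 0 of 0 and 0 of 26 reads were methylated, summed over the listed CpGs, against 0 of 141, 1 of 237 and 0 of 16 in the WT libraries. Reads that cross more than 1 CpG are counted once for each, here and in the read numbers of windows.

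Coverage of the members was uneven between the libraries. The Chd8+/- libraries listed 126, 108 and 125 of the 130 members at a median of 32, 23 and 26 reads, and the WT libraries listed 127, 123 and 118 at a median of 39, 37 and 33 reads. Chromosome X took 2.56% and 2.58% of all reads over CpGs in replicate 3 of Chd8+/- and of WT, against 1.18% to 1.21% in the other 4 libraries. Results are therefore also given for replicates 1 and 2 alone. Read counts understated the error: in 29 pairs of strands of the same CpG and library, at levels of 20% to 80%, the strands differed by 27.8 points (root mean square), against 14.3 points expected from their reads. Intervals and upper limits from reads therefore cover counting error only.

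The members were mostly at the extremes. Averaged over the samples that listed them, 65 of the 130 CpGs were under 5% and 13 were at 95% or above, while 13 lay from 35% to under 65% and 12 from 20% to under 35%. Igf2 held 64 of the 65 lowest CpGs. Read as 500-bp windows with at least 3 members, 3 of 18 windows (16.7%) lay between 35% and 65%, the band called near 50% here, against 10.2% of 106184 autosomal windows. A further 2 windows stood just under the band, at 32.4% and 32.5%, and 1 just above it at 67.0%. The lowest window inside it was at 43.5%. No member lay in the 9260 bp listed below H19 or in the 6000 bp above Igf2, so the outer flanks of the domain were not analysed here.

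**Figure D1:**
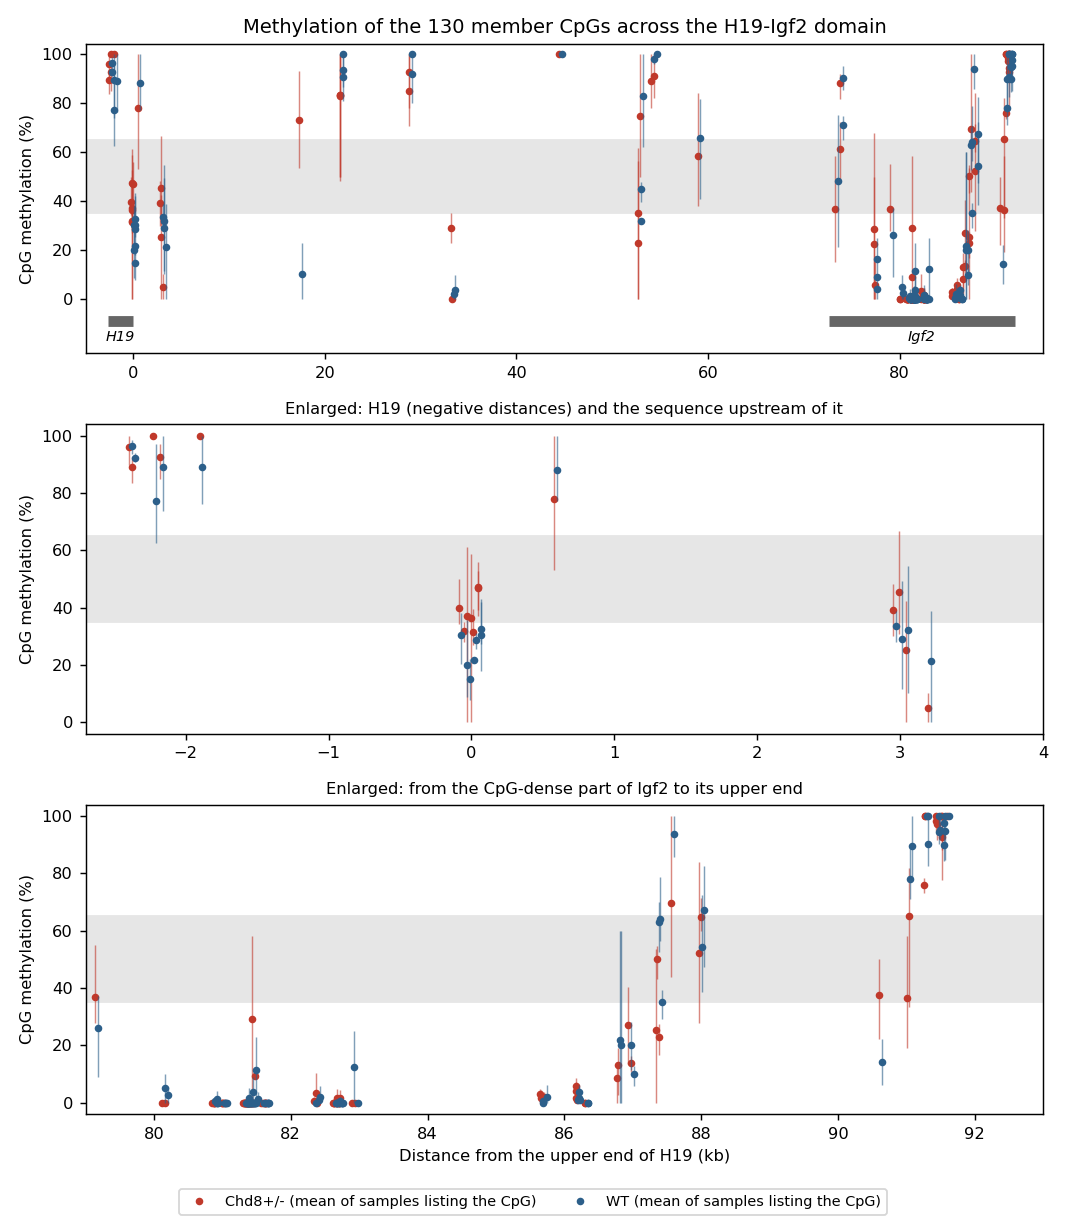
Methylation level (%) of each of the 130 member CpGs against distance from the upper end of H19 (kb), for the whole domain and enlarged at H19 and at Igf2. Points are group means over the samples that listed the CpG, vertical lines run from the lowest to the highest sample, and the grey band marks 35% to 65%. Levels near 0 stand from 80 to 83 kb and again at about 86 kb, inside Igf2, with no member in between. Levels near 100% stand at both the lower end of H19 and the upper end of Igf2.

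The lower end of H19 was heavily methylated in every sample. The window there, from 142129501 to 142130000, stood at 94.6%, 91.7% and 97.1% in Chd8+/- and at 96.6%, 81.0% and 88.8% in WT, over 4 CpGs and 562 to 834 reads per library. H19 is transcribed towards lower coordinates, so this window lies near the end of the gene. Its deepest CpG, at 142129554, read 92.6%, 83.5% and 91.4% in Chd8+/- and 92.2%, 94.0% and 91.0% in WT over 266 to 367 reads.

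At the start of H19 the level was intermediate. The window from 142131501 to 142132000 holds 7 CpGs within 139 bp on both sides of the upper end of the gene, where its promoter lies. It stood at 40.4%, 43.9% and 31.6% in Chd8+/- and at 27.4%, 25.2% and 26.1% in WT, over 196 to 284 reads per library. The ranges did not overlap, and every Chd8+/- sample was above every WT sample. The means were 38.6% ± 6.34 in Chd8+/- and 26.2% ± 1.14 in WT (SD, n = 3 each), a difference of 12.4 points. edgeR's quasi-likelihood test on the reads, fitted over all windows, gave an unadjusted p of 0.262 and an adjusted p of 1.00. All 7 CpGs were intermediate on average, between 25.9% and 40.004%, but CpGs at 142131902 and 142131928 read 50% and 61.1%, and 50% and 58.8%, in Chd8+/- replicates 1 and 2 and 0 in replicate 3, over 14 to 18 reads. WT replicate 2 listed neither of these CpGs, which bears on its window level of 25.2% and on the WT SD of 1.14. Over the 5 CpGs read in all 6 samples the window averaged 39.4% ± 4.21 in Chd8+/- and 28.4% ± 3.77 in WT (SD, n = 3 each).

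The control-region part upstream of H19 was read at few CpGs and scattered widely. The window from 142134501 to 142135000, 3.0 kb upstream of H19, stood at 34.0%, 15.4% and 52.4% in Chd8+/- and at 47.6%, 16.7% and 28.7% in WT, over 3 CpGs and 52 to 128 reads. The groups overlapped fully: both the lowest and the highest sample were Chd8+/-, and WT replicate 1 was close to the top. The means were 33.9% ± 18.5 in Chd8+/- and 31.0% ± 15.5 in WT (SD, n = 3 each), with an edgeR adjusted p of 1.00. Its deepest CpG, at 142134924, read 38.7%, 30.8% and 66.7% in Chd8+/- and 49.2%, 11.7% and 26.2% in WT over 26 to 65 reads. Between this window and H19 a single CpG at 142132505 was higher, at 53.2%, 100% and 80.8% in Chd8+/- and 86.7%, 77.3% and 100% in WT. The part that lies within 10 kb upstream of H19 held 9 members in all, none beyond 142135123. CTCF binding sites were not located here, since no mm39 genome was used.

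Over the 6 CpGs read in all samples in those 10 kb, Chd8+/- samples averaged 45.7% ± 7.57 and WT samples 40.1% ± 8.40 (SD, n = 3 each). The difference of 5.57 points had a standard error of 6.53 and an exact two-sided permutation p of 0.6. H19 itself averaged 74.9% ± 3.69 in Chd8+/- and 67.6% ± 8.16 in WT over 6 CpGs (SD, n = 3 each, exact permutation p = 0.3). Both differences moved with the processing, and some settings also changed which CpGs were averaged. In H19 it was 1.19 points weighted by reads. The 2 strands were read at different CpGs of H19. On the plus strand the difference was -0.0186 points, at 92.6% in Chd8+/- and 92.7% in WT. These 3 CpGs, at 142129532, 142129554 and 142129749, all lie at the lower end of the gene. On the minus strand the difference was 14.5 points, at 57.2% in Chd8+/- and 42.6% in WT. These 3 CpGs, at 142129705, 142131840 and 142131880, include the start of the gene. Upstream the difference was 12.6 points at a minimum of 20 reads (4 CpGs, exact permutation p = 0.1) and 0.823 points without WT replicate 2. On replicates 1 and 2 alone the differences were 2.77 points upstream and 4.13 points in H19.

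**Figure D2:**
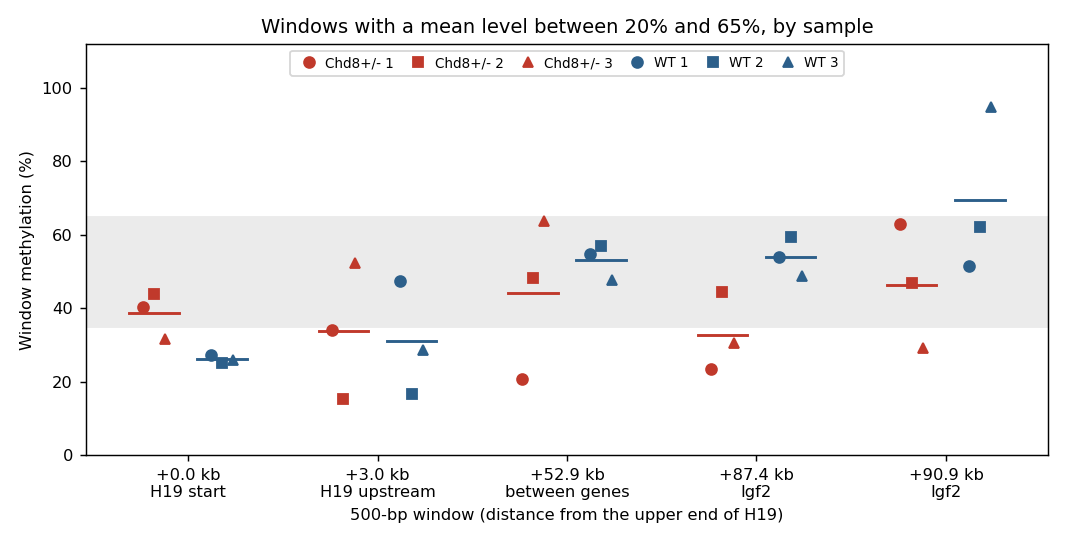
Methylation level (%) of the 5 windows with a mean between 20% and 65%, by sample, with Chd8+/- left of WT in each window, lines at group means and the 35% to 65% band in grey. At the start of H19 the Chd8+/- samples (31.6% to 43.9%) lie above the WT samples (25.2% to 27.4%), and at 87.4 kb in Igf2 they lie below (23.5% to 44.4% against 49.0% to 59.3%); in the other windows the ranges overlap.

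The 62579 bp between the H19 upstream part and Igf2 held 15 members, 8 of them at 80% or above on average. The CpG at 142176531 read 100% in all 6 libraries over 19 to 55 reads. The highest window, from 142153501 to 142154000, stood at 49.5%, 100% and 100% in Chd8+/- and at 93.6% and 95.5% in WT replicates 1 and 3, with no reads in WT replicate 2. Chd8+/- replicate 1 was the only sample below 90% there.

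A near-50% window stood between the genes, 52.9 kb upstream of H19. This window, from 142184501 to 142185000, read 20.8%, 48.1% and 63.8% in Chd8+/- and 54.9%, 56.9% and 47.8% in WT over 3 CpGs and 70 to 142 reads. The WT samples lay close together, and the Chd8+/- samples lay on both sides of them. Its mean of 48.7% did not come from CpGs of similar level, since the 3 averaged between 27.4% and 78.7%. The exact permutation p of its difference of -8.96 points was 0.8, and without Chd8+/- replicate 1 the difference was 2.75 points. On replicates 1 and 2 alone it was -21.4 points.

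Over the 7 CpGs read in all samples in this stretch between the genes, levels were 66.9% ± 10.5 in Chd8+/- and 73.9% ± 2.94 in WT (SD, n = 3 each, exact permutation p = 0.4). The difference of -6.92 points became 4.18 points when all 15 members were averaged, each sample over those it listed. On replicates 1 and 2 alone it was -13.3 points. Some CpGs there differed sharply between samples at low depth. The CpG at 142149343, named after its values were seen, read 92.9% and 53.3% in Chd8+/- replicates 1 and 2, against 0, 8.33% and 23.1% in WT, over 12 to 26 reads.

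The CpG-dense middle of Igf2 was unmethylated in both genotypes. Its 7 windows from the CpG at 142212790 to that at 142218244 held 65 members, among them 1 of the promoter printed above, and had means between 0 and 1.67%. No member lay between the CpGs at 142214876 and 142217581, so the level there is not known. The highest window level of any sample was 4.27%, in Chd8+/- replicate 2 over 47 reads. Of the single CpGs, 4 of 65 exceeded 10% in a sample, each in 1 library. The highest were 58.3% at 142213375 in Chd8+/- replicate 3, over 12 reads, and 25% at 142214830 and 23.1% at 142213389 in WT replicate 1, over 16 and 13 reads. The lowest window of the gene, from 142213501 to 142214000, was at 0 in all 6 samples over 6 CpGs. Its deepest CpG, at 142213532, had 77, 27 and 32 reads in Chd8+/-, which allow a level there of up to 3.90%, 11.1% and 9.38% (3 reads of the total), and 88, 83 and 89 reads in WT, which allow up to 3.41%, 3.61% and 3.37%. In Igf2 as a whole 66 of 98 members were under 20% in every sample that listed them and 45 were at 0 throughout.

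Methylation climbed from this trough towards the upper end of Igf2, the side from which the gene is transcribed. The window from 142218501 to 142219000 stood at 14.2%, 10.1% and 22.5% in Chd8+/- and at 10.2%, 9.47% and 34.3% in WT. In the next window, from 142219001 to 142219500, the level was near 50%, and in the next again, up to 142220000, it was 70.5%, 47.7% and 68.3% in Chd8+/- and 65.3%, 84.9% and 65.2% in WT. The highest window of the gene, from 142223001 to 142223500, was at 96.3%, 98.8% and 94.0% in Chd8+/- and at 97.1%, 94.8% and 96.8% in WT over 10 CpGs. The limits used for Igf2 span 19501 bp and RefSeq (GRCm38.p6) gives 16049 bp, so the uppermost windows may lie outside the annotated gene. Levels were also higher on the lower side of the trough. The CpG at 142205854, named after its values were seen, read 91.8%, 81.7% and 90.8% in Chd8+/- and 94.9%, 85.1% and 90.3% in WT. The window from 142209001 to 142209500 read 11.9%, 45.2% and 0 in Chd8+/- and 7.91% and 11.8% in WT replicates 2 and 3.

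Both near-50% windows in Igf2 had lower means in Chd8+/-. The window from 142219001 to 142219500 stood at 23.5%, 44.4% and 30.6% in Chd8+/- and at 54.1%, 59.3% and 49.0% in WT, over 107 to 260 reads. Every Chd8+/- sample was below every WT sample. The means were 32.8% ± 10.6 in Chd8+/- and 54.1% ± 5.18 in WT (SD, n = 3 each), a difference of -21.3 points with a standard error of 6.81. By exact permutation over samples, two-sided, p was 0.1, which is the lowest value possible for 3 against 3, with a Benjamini-Hochberg value of 0.15 over the 3 near-50% windows. edgeR gave an unadjusted p of 0.173 and an adjusted p of 1.00. On replicates 1 and 2 alone the difference was -22.8 points.

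The 3 CpGs of that window did not share 1 level. At 142219275 Chd8+/- samples read 0, 53.6% and 22.2% and WT samples 66.7%, 70% and 52.5% over 18 to 51 reads. At 142219290, the deepest of the 3, they read 43.1%, 54.5% and 52.8% in Chd8+/- and 56.4%, 78.7% and 57.7% in WT over 55 to 130 reads. At 142219326 they read 27.5%, 25.0% and 16.7% in Chd8+/- and 39.2%, 29.3% and 36.7% in WT. The groups did not overlap at the last 2 CpGs.

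The window from 142222501 to 142223000 had the smallest edgeR p of the domain, 0.0901, with an adjusted p of 1.00. It read 63.0%, 47.0% and 29.1% in Chd8+/- and 51.6%, 62.3% and 94.9% in WT over 63 to 141 reads, and the ranges overlapped. Its CpGs went in different directions: at 142222545 the levels were 50%, 40% and 22.2% in Chd8+/- and 6.25% and 22.2% in the 2 WT samples that listed it, while at 142222953 they were 58.3%, 19.2% and 31.7% in Chd8+/- and 71.1%, 73.3% and 89.8% in WT. WT replicate 3 did not list the first of these, which bears on its window level of 94.9%. The 2 CpGs read in all samples, which leave out the one at 142222545, averaged 50.9% in Chd8+/- and 83.8% in WT. Their difference was -33.0 points (exact permutation p = 0.1, Benjamini-Hochberg 0.15), and -18.3 points on replicates 1 and 2 alone. Over all 3 members, each sample over those it listed, the difference was -23.2 points (exact permutation p = 0.3).

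**Figure D3:**
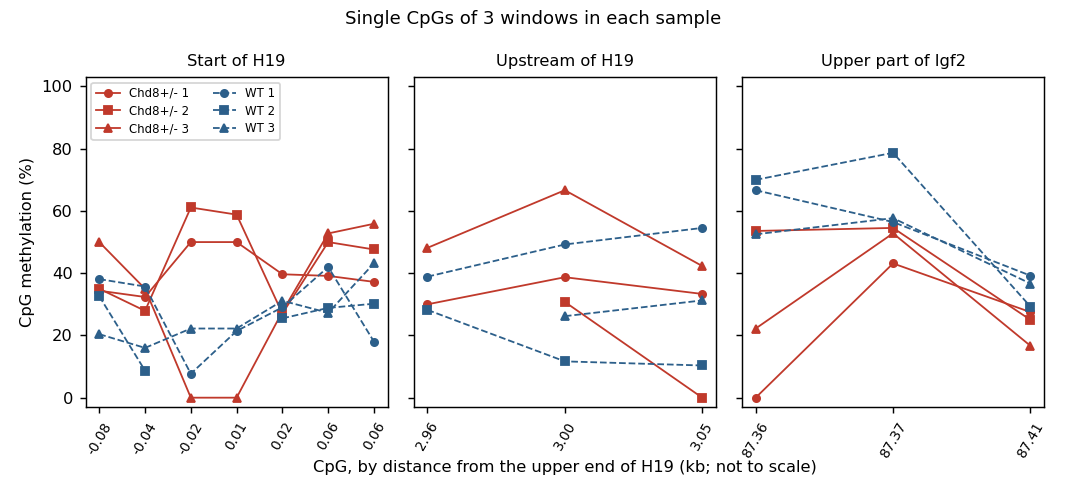
Methylation level (%) of the single CpGs of 3 windows in each of the 6 samples (Chd8+/- solid, WT dashed), at the start of H19, 3.0 kb upstream of it and in the upper part of Igf2. CpGs of 1 sample differ widely within a window, for example 0 and 52.8% in Chd8+/- replicate 3 at the start of H19.

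Over Igf2 as a whole the 69 CpGs read in all samples averaged 18.4%, 17.5% and 18.4% in Chd8+/- and 19.4%, 20.04% and 21.4% in WT. All 3 Chd8+/- samples were below all 3 WT samples, with a mean difference of -2.20 points, an exact permutation p of 0.1 and a Benjamini-Hochberg value of 0.4 over the 4 sub-regions with data. The 69 CpGs include those of both near-50% windows of Igf2, given above at -21.3 and -33.0 points, so this is not a separate result. Weighted by reads the difference was -0.471 points (exact permutation p = 0.9). The whole domain averaged 27.7% ± 1.70 in Chd8+/- and 29.1% ± 0.929 in WT over 88 CpGs (SD, n = 3 each, exact permutation p = 0.3). This difference of -1.40 points turned to 0.662 points weighted by reads and to 0.548 points at a minimum of 20 reads. The 3 near-50% windows together stood at 34.0%, 47.3% and 43.5% in Chd8+/- and at 59.4%, 64.2% and 60.02% in WT over 8 CpGs, a difference of -19.6 points with a standard error of 4.22 (exact permutation p = 0.1). With the band widened to 30% to 70%, which takes in the 2 windows at and upstream of the start of H19, it was -6.73 points (exact permutation p = 0.2). The 8 CpGs leave out the one at 142222545, which went the other way. Over all 9 members of the 3 windows the difference was -16.5 points (exact permutation p = 0.1).

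No window or CpG of the domain passed the test for genotype across the genome, which does not show that the genotypes were alike. edgeR called 0 of 17 windows of the domain at an adjusted p under 0.05, and 0.0% of 102748 autosomal windows. The window at 0 throughout could not enter. At an unadjusted edgeR p under 0.05 there were 0 of 17 windows, against 3.51% of all windows, and limma gave 0 of 17 against 5.17%. Of the 81 member CpGs that could be tested, 0 passed by edgeR (0.0% of 609673 CpGs) and 3 had an unadjusted p under 0.05, against 3.02% of all CpGs. limma also called 0 and had 6 of 81 at an unadjusted p under 0.05, against 5.11%. The fitted direction was higher in Chd8+/- for 9 windows and lower for 8, while 53.1% of all windows were higher. Without Chd8+/- replicate 1 the split was 12 higher and 5 lower, and without Chd8+/- replicate 3 it was 7 and 10.

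The groups did not overlap in 3 of the 18 windows, against 9.68% of all windows. Chd8+/- was higher in 2 of them (5.44% of all windows) and lower in 1 (4.24%). Beside the start of H19 and the near-50% window of Igf2, the third was the window from 142218001 to 142218500 in the unmethylated part of Igf2, at 2.80%, 1.95% and 1.54% in Chd8+/- and 1.43%, 1.29% and 1.01% in WT over 524 to 858 reads. Among single CpGs, 9 of 130 did not overlap, 5 higher and 4 lower in Chd8+/-, against 7.04% of all CpGs. Named after their values were seen, those higher lay at 142129705, 142149343, 142165263, 142213414 and 142223445, and those lower at 142219290, 142219326, 142222953 and 142223205. For windows between 35% and 65%, 4.18% genome-wide had every Chd8+/- sample below every WT sample, and for windows from 20% to under 35%, 7.02% had every Chd8+/- sample above.

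**Figure D4:**
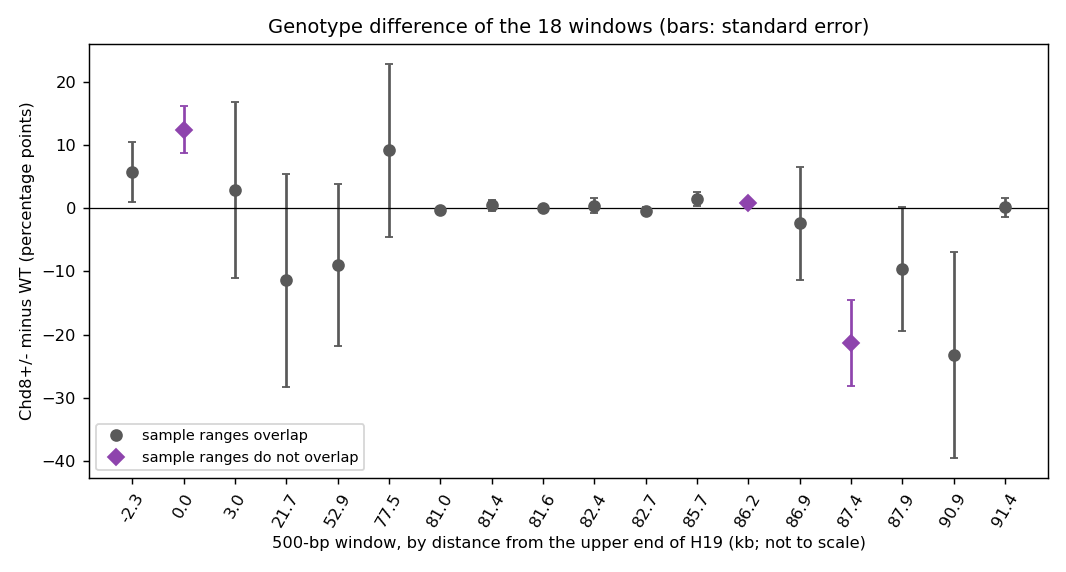
Chd8+/- minus WT difference in window level (percentage points) for the 18 windows in order along the domain, with bars for the standard error over samples; diamonds mark windows whose sample ranges do not overlap. Differences reach 12.4 points at the start of H19 and -23.2 points at 90.9 kb, and stay within 1.47 points in the unmethylated part of Igf2.

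The 3 CpGs of the domain with the smallest edgeR p lay apart from one another. The CpG at 142218104, in the unmethylated part of Igf2, read 2.99%, 2.47% and 7.14% in Chd8+/- and 0, 2.63% and 0 in WT over 134 to 204 reads, with an unadjusted p of 0.0215. At 142223205, near the upper end of Igf2, Chd8+/- replicates 1 and 3 read 78.4% and 73.3% and all 3 WT samples read 100%, over 15 to 67 reads (unadjusted p = 0.0234 by edgeR). The CpG at 142129705 in H19 read 100% in all 3 Chd8+/- samples and 97.1%, 62.5% and 72.0% in WT over 11 to 50 reads, with an unadjusted p of 0.0391. Each had an edgeR adjusted p of 1.00. Among windows the second smallest p, 0.143, belonged to the one from 142212501 to 142213000, at 0 in all Chd8+/- samples and at 0, 0.633% and 0 in WT over 182 to 353 reads.

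The spread between samples was wide in several windows. The SD over the 6 samples had a median of 14.9 points in the 3 near-50% windows of the domain, against 11.8 points in all 10783 autosomal windows of that band. It was 0.942 points in the 9 windows under 20%, against 0.975 points in all windows of that class. Outside the band it reached 21.6 points in the window from 142153501 to 142154000, and 17.4 points in that from 142209001 to 142209500. The median size of the genotype difference was 21.3 points in the 3 near-50% windows and 7.21 points in all windows of the band, and 2.66 points over the 18 windows against 2.44 points over all windows. Each of the 3 near-50% windows holds 3 CpGs, the fewest allowed. The genome-wide windows were not matched to them for number of CpGs or reads.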

How the data were processed

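RRBS libraries of 3 Chd8+/- and 3 WT neocortex samples were used. Per the submitters' processing notes the tools were Trim Galore 0.4.4, Bismark 0.20.0 and SAMtools 1.9, with the genome build mm39. Their settings and any deduplication are not given in the sources used here. Coverage was deposited as a count of reads per cytosine and strand, with a lowest listed value of 10 reads, per the file headers. The shares read as cytosine and thymine were deposited as percent. Methylated reads were coverage multiplied by this percent, rounded. Summed coverage per library ran from 32285980 to 39820333 reads over CpGs in Chd8+/- and from 45498222 to 54818138 in WT, so every Chd8+/- library was shallower.

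Strands were merged by adding reads. Levels of a window or region are unweighted means over CpGs, per sample. Mean levels over CpGs read in all 6 samples were compared by exact two-sided permutation tests, which cannot go below p = 0.1. Windows were 500 bp from the chromosome start with at least 3 members, and near-50% windows within 1000 bp formed a stretch. Methylated and unmethylated reads of all autosomal windows and CpGs were tested with edgeR 4.0.16 (quasi-likelihood, a coverage term per sample) in R 4.3.3, with Benjamini-Hochberg adjustment over the whole table. Features at 0 or 100% in all samples were left out, and a sample without reads at a feature adds nothing there. The alternative was limma 3.58.1 on log2 of methylated plus 1 over unmethylated plus 1 reads. Run on simulated data, the edgeR test gave the right direction for nearly all changed features, but after adjustment it called no window at any simulated size. The spread between simulated samples was set by hand and not fitted to these data, so the simulation does not measure the power here. The absence of adjusted calls at windows does not show that no window differed. Python 3.11.15, numpy 2.4.6, pandas 2.3.3 and matplotlib 3.10.9 were used.

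The domain, its limits and the tests were chosen with earlier results of these data known. Named were H19 and Igf2, the near-50% windows, the highest and lowest window of each sub-region, and the 3 windows and 3 CpGs with the smallest edgeR p. The placement of the promoter sequence was chosen after the data were seen and needed at least 5 matching CpGs. Promoters of a list of insulin-like growth factor genes were not analysed here, because the gene table follows another build.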

Additional observations from a re-analysis of the deposited data

How the results depend on the processing

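Across the alternatives, 114 values of the main comparisons kept their direction or their count of 0 and 4 reversed. The counts of 0 were 0 nearly everywhere in the genome too, and the replicate block repeats the main difference by construction. No exact p could fall below 0.1 either, so this says little of stability. The domain difference turned to 0.548 points at a minimum of 20 reads and to 0.662 points with weighting by read number. H19 turned to -0.0186 points on the plus strand, where only 3 CpGs at its lower end were averaged. The part between the genes turned to 4.18 points over all members. The plus-strand value leaves out the start of H19, so it does not compare the same CpGs. The cause of the other reversals was not tested. Among single windows and CpGs 129 values kept their direction and 5 reversed: the window at 142184501 without Chd8+/- replicate 1 (2.75 points, log2 odds ratio 0.30), and the window at 142134501 on replicates 1 and 2 (-0.45), without Chd8+/- replicate 3 (-0.39) and without WT replicate 2 (-0.24). Over left-out samples the difference ran from -2.38 to -0.901 points for the domain, 3.92 to 11.8 for H19, 0.823 to 8.80 upstream of it, -12.5 to -1.98 between the genes, -2.63 to -1.65 for Igf2 and -22.4 to -15.8 for the near-50% windows together. For the near-50% window at 142184501 it ran from -18.7 to 2.75 points, with log2 odds ratios from -0.71 to 0.30, and the log2 odds ratio of the window at 142134501 ran from -0.39 to 1.00. edgeR called 0 windows and 0 CpGs of the domain under each alternative. Over all autosomes it also called 0 windows under each, and at most 1 CpG. These counts of 0 are therefore no result about the domain.

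Deviations from the group mean did not go together in same-numbered samples (correlations of -0.00196, 0.00235 and -0.00333 over 94527 windows), and the samples were therefore treated as unpaired. In a fit with a replicate block, edgeR again called 0 windows and 0 CpGs of the domain, and also 0 of 102748 windows and 0 of 609673 CpGs over all autosomes. Paired by number, the domain difference was -1.40 points with an exact permutation p of 0.25, below which 3 pairs cannot go. Depth was low in the control-region part, with 52 to 128 reads over 3 CpGs.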
